A study of Mus musculus with 12 samples.

Results

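Expression in MC3T3 sc4 cells after 6 h of SAHA was compared with expression in the same cells given DMSO, across every gene the array measured. MC3T3 sc4 is a single subclone of a mouse calvarial cell line that matures into osteoblasts, so no difference here describes more than this clone. Cells of every group were at day 4 in osteogenic medium containing ascorbic acid (50 µg/ml) with beta-glycerophosphate (4 mM), and all were exposed to collagenase for 40 minutes before harvest. The treated cells received 20 µM SAHA (vorinostat) and the control cells its solvent, DMSO, and each agent was also present during the collagenase step. The comparison uses 8 of the 12 arrays of the study, 4 for DMSO and 4 for SAHA at 6 h, and the other 4, SAHA at 2 h, serve to place the 6 h values in time. Of 45281 probes, 16431 had a detection p under 0.01 on at least 4 of the 12 arrays, and 14136 of these carried 1 gene symbol. They stand for 9153 genes, each read through its brightest such probe, and all 9153 are the subject of what follows. Separate cultures are not named for the 4 arrays within a group. The p-values therefore describe the scatter among these samples only, and that scatter may be technical. The time in DMSO is not given either, so time in culture and time in SAHA cannot be told apart.

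SAHA blocks the zinc-dependent histone deacetylases, enzymes that remove acetyl groups from lysines of histones and of other proteins such as tubulin. Histone acetylation loosens chromatin and recruits bromodomain proteins, and its increase is known to raise some genes while silencing others, among them genes that depend on large enhancers. Osteoblasts build bone by secreting collagen and other matrix, and their maturation is steered by secreted factors of the BMP, TGF-beta, Wnt, FGF, hedgehog and Notch families and by parathyroid hormone.

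At 6 h most of the measured genes differed from DMSO. At an adjusted p under 0.05 (limma, Benjamini-Hochberg over 9153 genes) 7083 genes were called, which is 77.4% of those tested. Over single probes the share was close, at 11970 of 16431 (72.9%). The calls were split evenly, with 3562 genes higher (38.9%) and 3521 lower (38.5%). Quantile normalization gave all arrays the same distribution of values, and with no normalization between arrays 2540 genes were higher and 2843 lower. With 77.4% of genes called, membership among the changed genes by itself sets a gene little apart. Size separates them more. The median absolute difference was 0.48 on the log2 scale, 3224 of the called genes differed by less than 1.5-fold, 919 were at least 2-fold higher (10.0%) and 980 at least 2-fold lower (10.7%). At least 4-fold differences were fitted for 114 genes that rose and 171 that fell, and at least 8-fold differences for 17 and 27. Many of these were not above background in one of the groups. With such genes set at the detection limit, 853 were at least 2-fold higher, 885 at least 2-fold lower, 82 at least 4-fold higher and 140 at least 4-fold lower. The values of the 4 DMSO and the 4 SAHA arrays did not overlap for 6476 genes, 70.8% of those tested. A group of 160 genes was detected on none of the DMSO arrays and on all 4 SAHA arrays, and 207 genes went from detection on all 4 DMSO arrays to none. All levels below are normalized log2 intensities, differences are log2 differences of SAHA at 6 h minus DMSO with their standard errors, n = 4 arrays in each group, and "called", "rose" and "fell" refer to the adjusted p above. Among the called genes named below the largest adjusted p was 0.0184 (limma). Folds given as "at least" are set against the detection limit of the array, for genes not above background on all 4 arrays of a group.

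Arrays of a group resembled each other closely. The standard deviation over genes of the difference between 2 arrays was 0.182 to 0.218 within DMSO and 0.178 to 0.220 within SAHA at 6 h, against 0.858 to 0.885 between an array of each group. The highest normalized values were 15.51 to 15.58 on every array, and 49 genes averaged above 15 in both groups, of which 7 were called and none was 2-fold apart. Whether such bright probes are saturated was not tested, so a small difference near the top of the scale does not show that a gene was steady. No array stood apart. The DMSO arrays had 15610 to 16065 detected probes and the 6 h arrays 15264 to 15705. The same 200 ng of total RNA entered each preparation and the arrays were normalized to each other, so a shift shared by all genes would not be visible, and the median difference over all genes was 0.01. Fewer cells of a kind and less RNA per cell likewise cannot be told apart in these values.

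**Figure D1:**
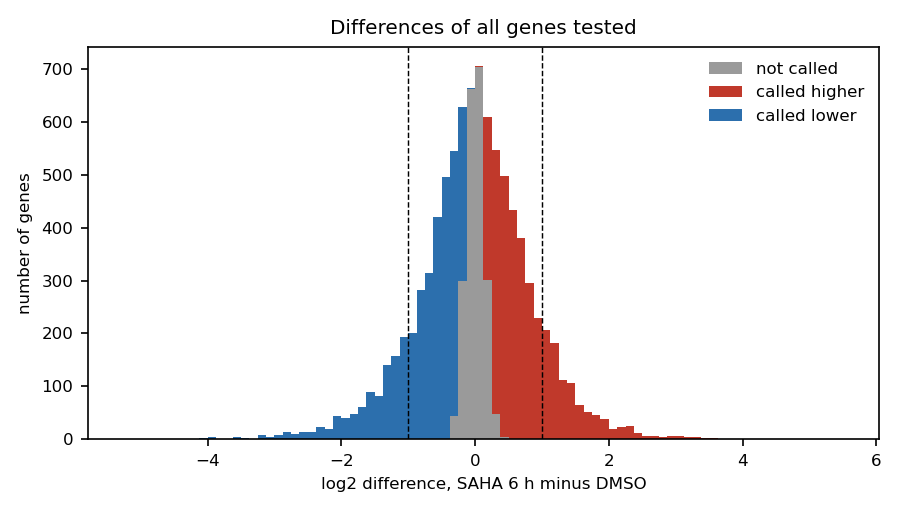
Number of genes (vertical axis) by log2 difference, SAHA at 6 h minus DMSO (horizontal axis), for the 9153 genes tested, with the 7083 called genes in colour and the 2070 others in grey. The 2 sides are nearly equal, with 3562 genes called higher and 3521 called lower, and the dashed lines mark 2-fold.

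The largest rises belonged to genes of varied function. Sort1, a sorting receptor that carries cargo from the Golgi to endosomes, read 8.21, 8.30, 8.39 and 8.35 on the DMSO arrays and 11.35, 11.42, 11.34 and 11.28 on the 6 h arrays. Insl6, a relaxin-family peptide gene known from male germ cells, read 8.63, 8.95, 8.90 and 8.93 with DMSO and 12.04, 11.97, 11.94 and 11.96 with SAHA. Mknk2, a kinase that phosphorylates the cap-binding factor eIF4E, read 10.39, 10.44, 10.53 and 10.54 with DMSO and 13.48, 13.43, 13.49 and 13.43 with SAHA. The differences were 3.03 ± 0.06 for Sort1, 3.13 ± 0.09 for Insl6 and 2.98 ± 0.05 for Mknk2 (limma, adjusted p = 8.157e-14, 2.42e-12 and 4.211e-14). The largest rises and falls named here were picked among called genes with no overlap between the groups. Such overlap was absent for 70.8% of all genes, so the separation of these arrays follows from the choice. Napepld, a phospholipase that makes N-acylethanolamine lipids, rose by 3.02 ± 0.08, the adhesion molecule Mcam by 2.98 ± 0.11, Rab3ip, an activator of a small GTPase of vesicle transport, by 2.77 ± 0.09, the RNA-binding protein Rbm38 by 2.75 ± 0.08 and the co-chaperone Sgtb by 2.72 ± 0.08. A further set was not above background with DMSO. Gch1, which opens the synthesis of tetrahydrobiopterin, was at least 21.3-fold higher at 6 h, Itpka, an inositol trisphosphate kinase, at least 8.13-fold, Cox7a1, a muscle and heart form of a cytochrome c oxidase subunit, at least 5.73-fold, the reticulon Rtn2 at least 4.31-fold and the adhesion molecule Alcam at least 3.35-fold.

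The largest falls likewise belonged to genes of varied function, some of them known from bone and tendon. Scx, the transcription factor scleraxis of tendon, read 11.18, 11.28, 11.35 and 11.42 with DMSO and 7.71, 7.97, 8.04 and 7.79 with SAHA. Tnfrsf11b, which encodes osteoprotegerin, the decoy receptor that restrains osteoclast formation, read 12.36, 11.92, 12.25 and 11.88 with DMSO and 8.68, 8.56, 8.54 and 8.54 with SAHA. Pth1r, the receptor of parathyroid hormone, read 11.97, 12.03, 12.04 and 12.19 with DMSO and 8.88, 8.80, 9.15 and 8.86 with SAHA. In each the nearest arrays of the groups were more than 2 units apart, though genes with overlap were left out by the choice. These genes fell by 3.43 ± 0.08, 3.52 ± 0.13 and 3.13 ± 0.08 (limma, adjusted p = 4.391e-13, 1.509e-11 and 1.512e-12). Dnm3os, a noncoding RNA gene that hosts skeletal microRNAs, fell by 3.56 ± 0.15, and its other kept probe fell by 1.70. Nkd2, an antagonist of Wnt signalling that binds Dishevelled, fell from 9.10, 9.36, 9.12 and 9.13 with DMSO to 5.94, 5.89, 6.18 and 5.88 with SAHA, where it was detected on 1 of the 4 arrays and its mean lay below their detection limits, so the size of the fall is not given. The caveola protein Cavin4 fell by 3.20 ± 0.08, the activin inhibitor Fst by 3.19 ± 0.06 and Kmt5b, which methylates histone H4, by 3.21 ± 0.08. Kcnk2, a potassium channel, fell by 3.56 ± 0.12 with detection on 2 SAHA arrays. Several were not above background at 6 h: Nr1h4, the bile acid receptor, was at least 4.71-fold lower, Apobr at least 6.80-fold, the demethylase-family gene Kdm8 at least 6.21-fold, Astn1 at least 4.10-fold and Traf3ip2, an adaptor of interleukin-17 receptors, at least 4.70-fold. Ackr4, a scavenging chemokine receptor, had the largest fitted fall, at -5.13 ± 0.06, but its 3 other kept probes ranged from -4.43 to 1.56, so its probes disagree.

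**Figure D2:**
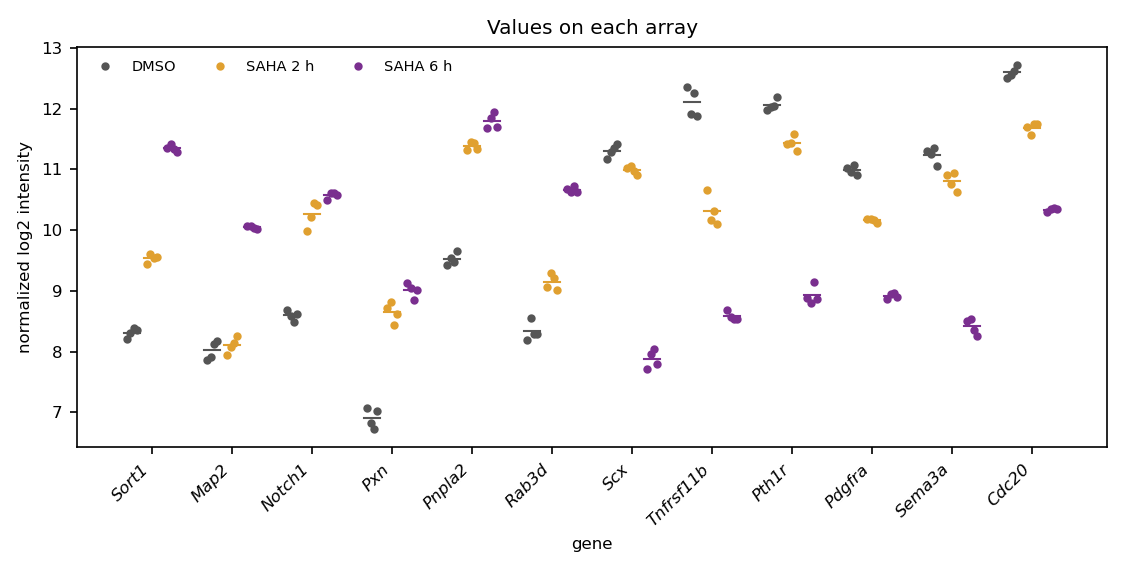
Normalized log2 intensity (vertical axis) of 12 genes on each of the 4 DMSO arrays, 4 SAHA 2 h arrays and 4 SAHA 6 h arrays; each point is an array and each bar a group mean. The 12 genes were taken from those whose 6 h and DMSO points do not overlap, 70.8% of the genes tested. Their separation was therefore set by the choice. In Map2 and Scx the 2 h points still lie near the DMSO points.

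Growth factor and guidance ligands were lower more often than higher. Of 20 FGF, PDGF, VEGF, IGF, angiopoietin and semaphorin ligand genes tested, 11 fell and 7 rose, with a median of -0.28 against 0.01 over all genes. The 6 called differences fitted at 2-fold or more were falls, though for 1 of them, Angpt2, the bound is smaller. Sema3a, a guidance factor that also acts on bone cells, read 11.29, 11.26, 11.34 and 11.06 with DMSO and 8.50, 8.54, 8.36 and 8.26 at 6 h. Fgf7 fell by 4.35 ± 0.07, Sema3a by 2.82 ± 0.09, Pdgfc by 2.37 ± 0.09, Vegfc by 1.59 ± 0.09 and Igf1 by 1.12 ± 0.08, and Angpt2, which was not above background at 6 h, was at least 1.82-fold lower. Sema3c was at 0.05 ± 0.14. Chemokines and cytokines did not lean 1 way, with 5 of 11 genes higher and 6 lower. Csf1, the growth factor of macrophages and osteoclast precursors, fell by 1.79 ± 0.09, while the membrane-bound chemokine Cx3cl1 rose by 0.63 ± 0.08.

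Receptor genes were divided. Of 22 receptor tyrosine kinases, 9 fell, 4 rose and 9 were not called. Pdgfra read 11.02, 10.96, 11.07 and 10.90 on the DMSO arrays and 8.86, 8.95, 8.96 and 8.90 on the SAHA arrays, with no overlap. It fell by 2.07 ± 0.05, its partner Pdgfrb by 1.49 ± 0.12 and Ddr2, a receptor for fibrillar collagen, by 1.19 ± 0.24, whereas Insr was at 0.06 ± 0.07 and Epha2 at -0.05 ± 0.10. Of 17 hormone receptors, 11 fell and 3 rose, with a median of -0.66, or -0.38 with undetected genes at the detection limit. Beside Pth1r, the retinoic acid receptor Rarg fell by 1.41 ± 0.13 and the orphan receptor Nr2f2, detected on 2 of the 4 SAHA arrays, by 1.71 ± 0.13. The estrogen receptor Esr1 fell from 7.48, 7.30, 7.60 and 7.39 with DMSO to 6.22, 5.81, 5.62 and 5.57 with SAHA, where it was detected on 1 array and its mean lay below the detection limits. Cytokine receptors and their signalling partners went both ways, with 8 of 26 higher and 14 lower: the leukaemia inhibitory factor receptor Lifr rose by 1.25 ± 0.07 and the interferon mediator Stat2 by 1.65 ± 0.07, while Stat6, the mediator of interleukin-4, fell by 1.71 ± 0.10 and Tnfrsf12a by 1.71 ± 0.07.

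TGF-beta signalling uses secreted dimers, a pair of receptor kinases and SMAD proteins that carry the signal to the nucleus. Of 23 genes of this pathway and of matricellular proteins listed with it, 15 fell and 5 rose, with a median of -0.58. Of the ligands, Tgfb3 read 10.44, 10.35, 10.58 and 10.48 with DMSO and 8.93, 8.69, 9.09 and 8.98 with SAHA, and fell by 1.54 ± 0.08. Tgfb1 fell by 0.72 ± 0.13 and Inhba, the activin subunit gene, by 1.84 ± 0.06. Of the receptors, Tgfbr2 fell by 1.54 ± 0.06. Among the matricellular genes, Ccn4 fell by 1.64 ± 0.05 and Ccn5 by 4.11 ± 0.06, and Ccn5 is also counted among the falls of the Wnt list below. Ccn1, a related gene that responds to YAP and serum, rose by 1.41 ± 0.11. Ltbp3 was at -0.05 ± 0.07 and the repressor gene Skil at -0.07 ± 0.08. In the BMP list 11 of 18 fell and 2 rose. The secreted antagonist Grem1 fell by 2.94 ± 0.09 and the ligand Bmp4 by 0.92 ± 0.05, while Id1, a direct BMP target, rose by 2.35 ± 0.08.

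Notch genes went the other way. Notch receptors are cut after binding a ligand on a neighbouring cell, and the freed part switches on the HES and HEY repressors. Of 11 genes tested, 8 rose, 6 of them at least 2-fold, and 2 fell, with a median of 1.06. Notch1 read 8.68, 8.59, 8.49 and 8.62 with DMSO and 10.49, 10.60, 10.61 and 10.58 with SAHA. The target Hes1 read 7.41, 7.26, 7.51 and 7.61 with DMSO and 8.72, 8.87, 8.92 and 8.95 with SAHA. In both genes the lowest SAHA array was more than 1 unit above the highest DMSO array. Notch1 rose by 1.97 ± 0.09, Notch3 by 1.06 ± 0.08, the ligand Jag1 by 1.24 ± 0.16, Hes1 by 1.42 ± 0.09, and Hes6 by 1.36 ± 0.07. Hey1 rose from 5.62, 6.22, 5.52 and 5.81 with DMSO, where it was detected on 1 array and its mean lay below the detection limits, to 7.65, 7.90, 7.57 and 7.68 with SAHA. Numbl, a relative of the Notch inhibitor Numb, fell by 0.84 ± 0.08, and Rfng, which adds sugars to Notch, was at 0.00 ± 0.09 with a 95% interval of -0.20 to 0.20. Notch1 itself was 0.31 ± 0.09 above the 2 h level, and Hes1 was -0.21 ± 0.09 from it, a difference that was not called.

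Of 29 Wnt genes 10 rose and 8 fell, with a median of -0.03, so 62.1% were called against 77.4% of all genes. Of the differences of at least 2-fold 7 were falls and 1 was a rise. Over all genes 10.7% fell and 10.0% rose that far. Single members moved far: the ligands Wnt10a and Wnt10b, both known to favour bone formation, fell by 2.80 ± 0.09 and 1.55 ± 0.13, and the receptor Fzd1 fell by 1.46 ± 0.11, while the ligand Wnt4 rose by 1.92 ± 0.08. Wnt5b was at -0.03 ± 0.08 and the co-receptor Lrp4 at 0.02 ± 0.07. Of 5 hedgehog genes tested 3 rose and 2 fell, so all were called, where 77.4% of all genes were. The signal transducer Smo fell by 1.53 ± 0.08 and the transcription factor Gli3 by 0.96 ± 0.06, whereas the inhibitor Sufu rose by 1.02 ± 0.10 and the co-receptor Cdon by 0.61 ± 0.07. Ptch1, both receptor and target, rose by 0.25 ± 0.08, a call lost under some of the alternative settings. In the Hippo pathway, which restrains the co-activator YAP, 8 of 16 genes fell and 5 rose. The co-activator gene Yap1 fell by 1.08 ± 0.09, its DNA-binding partner Tead2 by 1.12 ± 0.07, Vgll3 by 2.75 ± 0.09 and the target Ankrd1 by 1.64 ± 0.08, while the upstream kinase Stk4 rose by 1.11 ± 0.06 and Wwtr1, the relative of Yap1, was at 0.07 ± 0.10.

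Inside the cell, the list for phosphoinositide 3-kinase, AKT and FOXO leaned upward, with 14 of 23 genes higher, 5 lower and a median of 0.35. The catalytic subunit gene Pik3cb read 6.85, 7.09, 6.82 and 6.65 with DMSO and 8.97, 8.88, 8.81 and 8.93 with SAHA, a rise of 2.05 ± 0.09. Pdpk1, the kinase that activates AKT, rose by 1.19 ± 0.10 and the transcription factor Foxo1 by 1.03 ± 0.07. The growth inhibitors Tsc2 and Tsc1 rose by 0.85 ± 0.06 and 0.67 ± 0.09. Pik3ca was at -0.18 ± 0.09 and Mtor at 0.17 ± 0.08. Immediate early genes, which answer growth signals within minutes, were raised for 12 of 19 genes and lowered for 4. Atf3 rose by 2.30 ± 0.13, Egr1 by 2.09 ± 0.12 and Klf2 by 1.32 ± 0.07, and Klf6 was at 0.00 ± 0.09.

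**Figure D3:**
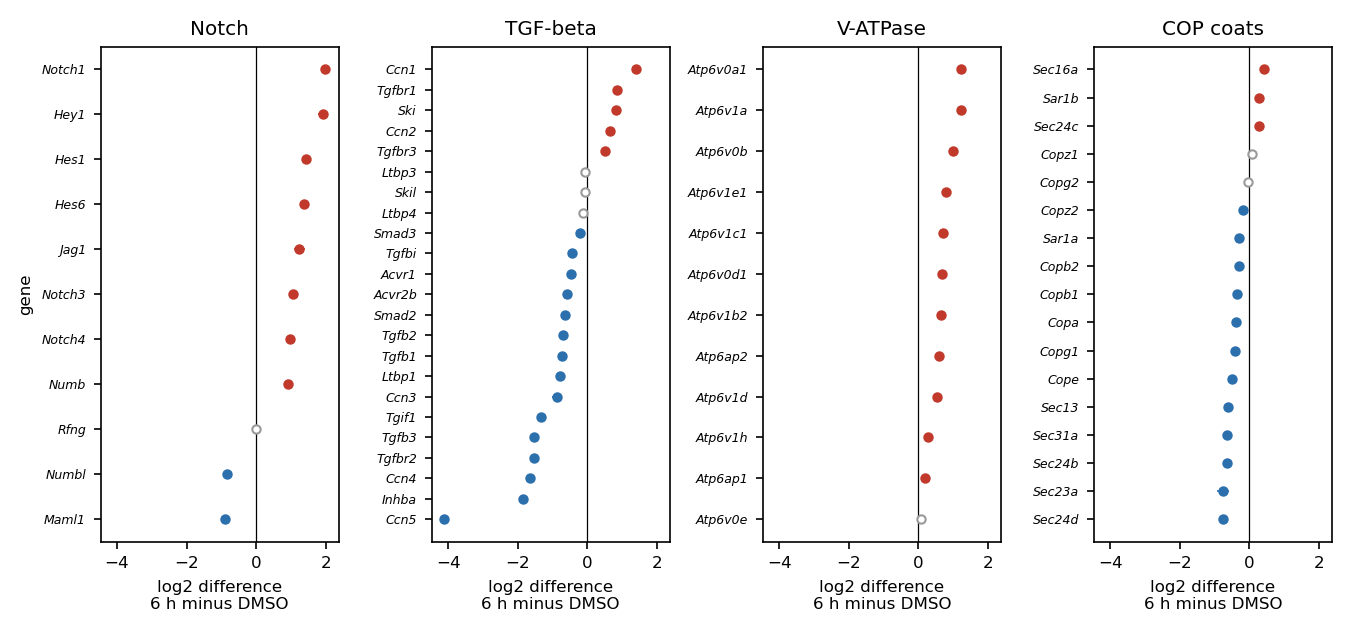
Log2 difference, SAHA at 6 h minus DMSO (horizontal axis), with standard error (bars), of every tested gene of the Notch list, the TGF-beta list, the V-ATPase and the ER to Golgi COP coat genes; filled points were called and open points were not, and most bars are shorter than the points are wide. Fitted values are plotted also for genes not above background in a group. Points lie mostly to the right of 0 for Notch (8 of 11 called higher) and the V-ATPase (11 of 12) and mostly to the left for TGF-beta (15 of 23 called lower) and the COP coats (12 of 17).

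Genes of the matrix and of its processing were lower in part. Of 19 collagen genes 10 fell and 2 rose, with a median of -0.20, and the falls of at least 2-fold numbered 2. Col1a1, the main collagen of bone, was at 0.07 ± 0.06 and was not called. Col5a2 fell by 0.78 ± 0.10 and Col24a1, a collagen of developing bone, by 1.34 ± 0.12, and Col27a1 was at least 2.92-fold lower. Of 22 genes that modify or cross-link collagen, 14 fell and 6 rose. The prolyl hydroxylases of this list parted: P4ha3 read 9.26, 9.12, 9.09 and 9.12 with DMSO and 7.59, 6.95, 7.56 and 7.09 with SAHA and fell by 1.85 ± 0.13, whereas P4ha1 rose by 1.08 ± 0.08 and P4ha2 by 0.90 ± 0.07. The cross-linking enzyme gene Lox fell by 1.11 ± 0.08, the collagen chaperone Fkbp14 by 1.20 ± 0.08 and the procollagen enhancer Pcolce2 by 1.23 ± 0.09, while Loxl1 was at 0.14 ± 0.08.

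Of 30 proteases and their inhibitors 12 rose and 13 fell, with 2 fitted at least 2-fold higher and 7 at least 2-fold lower. Adamts4, which cuts aggrecan, fell by 2.86 ± 0.09, the collagenase gene Mmp13 by 1.58 ± 0.15, the membrane protease gene Mmp14 by 1.24 ± 0.07, and Htra3 was at least 3.44-fold lower, while Mmp17 was at least 4.42-fold higher. Cells of all groups were exposed to collagenase before harvest, so these levels describe cells after that step. In the laminin, basement membrane and elastic fibre list 11 of 22 fell and 6 rose. Has2, the main hyaluronan synthase, read 9.53, 9.24, 9.62 and 9.37 with DMSO and 6.91, 6.81, 6.96 and 7.07 with SAHA and fell by 2.50 ± 0.10. The microfibril gene Mfap5 fell by 1.82 ± 0.06, while the laminin genes Lamc1 and Lama5 were higher, Lamc1 by 1.21 ± 0.08 and Lama5 at least 2.60-fold.

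Adhesion genes went both ways. Of 29 integrin and focal adhesion genes 16 fell and 8 rose. The scaffold gene Pxn (paxillin) read 7.07, 6.82, 6.73 and 7.02 with DMSO and 9.12, 9.05, 8.85 and 9.01 with SAHA, a rise of 2.10 ± 0.10, and the tensins Tns3 and Tns1 fell by 1.69 ± 0.07 and 1.05 ± 0.13. Of 20 genes of cell to cell adhesion, 10 rose and 9 fell. Pkp2, a plaque protein of desmosomes, rose by 3.42 ± 0.07 and Nectin2 by 1.94 ± 0.07, while the gap junction gene Gja1, abundant in osteoblasts, fell by 1.26 ± 0.06. Of 40 actin and contractile genes 17 fell and 13 rose: Flnc, which cross-links actin, fell by 1.46 ± 0.07, the transgelins Tagln2 and Tagln by 1.28 ± 0.06 and 1.17 ± 0.12 and the tropomyosin Tpm4 by 1.24 ± 0.07. Acta2, the smooth muscle actin, was at 0.01 ± 0.05, near the top of the scale.

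Microtubule genes were higher for the most part. Of 27 genes for tubulins, kinesins, microtubule-associated proteins and cilia, 18 rose and 3 fell, with a median of 0.37, and 7 rose at least 2-fold. Of the 6 kinesins 5 rose and none fell. Of the 7 tubulins 2 rose and 2 fell. Map2, which stabilizes microtubules in neuronal dendrites, read 7.86, 7.91, 8.13 and 8.17 with DMSO and 10.07, 10.06, 10.03 and 10.03 with SAHA. It rose by 2.03 ± 0.08, Mapt (tau) by 2.04 ± 0.10, the motor genes Kif5c by 1.86 ± 0.07, Kif21a by 1.61 ± 0.12 and Kif3a by 1.43 ± 0.08, and the cilium gene Bbs4 by 1.11 ± 0.06. Map1b was at -0.05 ± 0.11 and Tubb5, near the top of the scale, at -0.08 ± 0.06.

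Genes better known from neurons did not move as a block. In that list 11 of 25 rose, 9 of them at least 2-fold, and 9 fell, 4 of them at least 2-fold. The secretory GTPases Rab3d and Rab3a rose by 2.33 ± 0.08 and 2.01 ± 0.09, Rab3d from 8.19, 8.56, 8.29 and 8.30 with DMSO to 10.68, 10.63, 10.73 and 10.62 with SAHA. Hap1, the huntingtin-associated transport adaptor, was not above background with DMSO and at least 4.86-fold higher at 6 h. Dpysl3 was at 0.00 ± 0.08. Of the neuronal markers Snap25, Tubb3, Stmn2 and Syn1, only Syn1 had a tested probe, and it rose by 1.85 ± 0.06.

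Lysosome and autophagy genes were called higher more often than lower. Lysosomes degrade what autophagy and endocytosis deliver, and the V-ATPase is the proton pump that acidifies them. Of 50 lysosome genes 33 rose and 9 fell, with a median of 0.32. Of the 12 V-ATPase genes, accessory subunits included, 11 rose, 1 was not called and none fell, with differences from 0.08 to 1.23 and a median of 0.66. Of the other 38 lysosome genes 22 rose and 9 fell, with a median of 0.25. Atp6v1a, the catalytic subunit of the pump, read 11.31, 10.99, 11.54 and 11.05 with DMSO and 12.29, 12.59, 12.49 and 12.37 with SAHA. It rose by 1.22 ± 0.11, the membrane subunit Atp6v0a1 by 1.23 ± 0.05, the sialidase Neu1 by 1.42 ± 0.07, the fucosidase Fuca1 by 1.20 ± 0.08 and the protease Lgmn by 1.14 ± 0.11. The membrane protein gene Lamp2 was at -0.04 ± 0.07 and Glb1 at -0.07 ± 0.05. Of 37 autophagy genes 20 rose, 7 at least 2-fold, and 5 fell. The share called was 84.0% for lysosome and 67.6% for autophagy genes, against 77.4% of all genes, with 38.9% of all genes higher. Atg12, the tag that is joined to ATG5, rose by 1.83 ± 0.07, Atg101 and Ulk1 of the starting kinase complex by 1.80 ± 0.09 and 1.21 ± 0.07, and Map1lc3b, which coats the growing membrane, by 1.31 ± 0.09. Atg5 was at 0.02 ± 0.06.

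The letters CACGTG are the core of the site bound by TFEB and other helix-loop-helix factors and are the same on both strands. In windows from 250 bases before to 50 after the start (RefSeq, GRCm38.p6), searched for the 5949 tested genes with exactly 1 listed window, CACGTG was present in 10.5% of genes, in 10.1% of those at least 2-fold higher and in 8.36% of those at least 2-fold lower. It was present in 13 of 39 lysosome genes with a window, 33.3%. The match is a description of these letters and not evidence of binding. The window of Atp6v1a is shown because it belongs to the pump subunit described above, on the minus strand at chr16:44139210-44139509, with CACGTG in capitals, its first base at position -131 from the start.
Atp6v1a: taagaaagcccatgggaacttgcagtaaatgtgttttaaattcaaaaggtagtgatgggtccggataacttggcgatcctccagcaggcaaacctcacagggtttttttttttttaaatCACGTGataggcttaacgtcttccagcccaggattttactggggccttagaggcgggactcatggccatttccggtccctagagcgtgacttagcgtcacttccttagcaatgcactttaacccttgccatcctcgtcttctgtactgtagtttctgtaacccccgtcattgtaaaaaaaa

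Genes of early secretion were lower for the most part. Of 65 genes for transport between the endoplasmic reticulum and the Golgi, 37 fell and 13 rose, with a median of -0.25. Of the 17 genes for COP vesicle coats, which bud the carriers, 12 fell and 3 rose, with a median of -0.34. Most of these differences were small. Arfgap1, which drives uncoating, read 11.74, 11.85, 11.85 and 11.87 with DMSO and 10.45, 10.43, 10.48 and 10.46 with SAHA and fell by 1.37 ± 0.06, the membrane-shaping gene Atl3 by 1.13 ± 0.06, the cargo receptor Tmed3 by 1.04 ± 0.08 and the retrieval receptor Kdelr3 by 0.92 ± 0.06. Spcs2, of the signal peptidase, was at -0.03 ± 0.15. Reep6, which also shapes the membrane of the endoplasmic reticulum, rose by 4.04 ± 0.13 and stands apart from the list.

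Lipid genes were higher more often than lower, with 28 of 48 fatty acid and lipid droplet genes called up, 15 called down and a median of 0.37. Pnpla2, the first lipase of triglyceride breakdown, read 9.42, 9.53, 9.48 and 9.66 with DMSO and 11.68, 11.84, 11.94 and 11.70 with SAHA. It rose by 2.27 ± 0.07, and Dgat2, which makes triglyceride, rose by 1.67 ± 0.12. Acss2, which turns acetate into acetyl-CoA, rose by 1.53 ± 0.05, while Acsl5 fell by 1.83 ± 0.07 and Lpin3 was at least 7.15-fold lower. Dgat1 was at 0.16 ± 0.11. Of 25 glucose genes 16 rose and 5 fell, most by less than 2-fold, with 0.72 ± 0.12 for the hexokinase Hk1, 0.60 ± 0.06 for the glucose transporter Slc2a1 and -0.03 ± 0.07 for Tkt. Of 21 genes that respond to low oxygen 14 rose and 5 fell. Mxi1 rose by 1.27 ± 0.10, while Hif1a itself was at 0.03 ± 0.15.

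**Figure D4:**
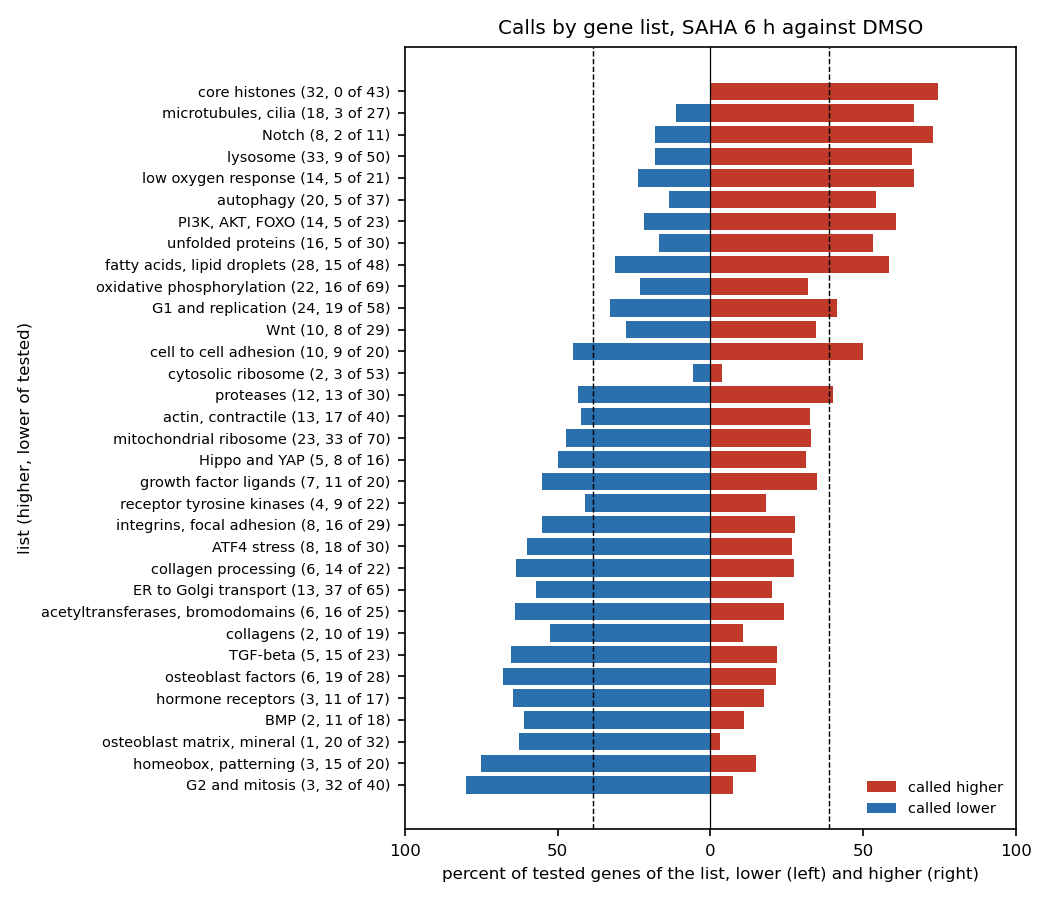
Share of the tested genes of each list (horizontal axis, percent) called higher (right of 0) or lower (left of 0) at SAHA 6 h against DMSO, for 33 of the lists described, ordered by the balance, with the counts of higher, lower and tested genes beside each name. The dashed lines mark the shares over all genes, 38.9% higher and 38.5% lower; core histones, lysosome and autophagy lie to the right and mitosis, homeobox and ER to Golgi transport to the left.

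Genes of mitosis were mostly lower and histone genes mostly higher. Of 40 genes of G2 and mitosis 32 fell and 3 rose, with a median of -0.78. Cdc20, the activator of the anaphase-promoting complex, read 12.50, 12.55, 12.62 and 12.71 with DMSO and 10.30, 10.34, 10.37 and 10.34 with SAHA. Plk1, a master kinase of mitosis, read 12.07, 12.26, 11.97 and 12.26 with DMSO and 9.98, 10.24, 10.21 and 9.92 with SAHA. The groups were more than 1 unit apart in both, and Cdc20 fell by 2.26 ± 0.06 and Plk1 by 2.05 ± 0.09. The centromere histone Cenpa fell by 1.62 ± 0.07 and the kinase Aurka by 1.59 ± 0.06, while Spag5 was at 0.01 ± 0.06 and Espl1 at -0.03 ± 0.08. Genes of G1 and DNA replication were divided, with 24 of 58 higher and 19 lower. The nucleotide enzymes Tk1 and Rrm2 fell by 2.41 ± 0.06 and 1.85 ± 0.13 and the cyclin Ccnd1 by 1.78 ± 0.06, whereas E2f2 rose by 1.41 ± 0.10 and the single-strand binding subunit Rpa1 by 1.29 ± 0.06. Of 26 genes of cell cycle restraint and quiescence 14 rose and 7 fell. Mxd1, a repressor that opposes MYC, rose by 2.34 ± 0.07 and the retinoblastoma gene Rb1 by 1.14 ± 0.06, but the inhibitor Cdkn1b fell by 1.04 ± 0.07. Cdkn1a, the inhibitor most often linked to HDAC inhibitors, was at -0.13 ± 0.06 and was not called, though it was under some alternative settings.

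Promoters of mitotic genes commonly carry CCAAT boxes and the letters TTTGAA of the cell cycle homology region. In the same RefSeq windows, searched on both strands, CCAAT was present in 70.0% of the 30 mitosis genes with a window against 40.1% of all 5949 genes, TTTGAA in 73.3% against 11.7%, and both in 60.0% against 5.03%. Among the 23 that fell and the 7 that did not, CCAAT was in 69.6% and 71.4%, TTTGAA in 73.9% and 71.4%, and both in 56.5% and 71.4%. The windows of the genes that fell furthest in the list are shown with both motifs in capitals. That of Cdc20 lies on the minus strand at chr4:118437294-118437593, with CCAAT starting at -53 and -8 and TTTGAA at -18 from the start. That of Plk1 lies on the plus strand at chr7:122159185-122159484, with CCAAT at -14 and TTTGAA at 31.
Cdc20: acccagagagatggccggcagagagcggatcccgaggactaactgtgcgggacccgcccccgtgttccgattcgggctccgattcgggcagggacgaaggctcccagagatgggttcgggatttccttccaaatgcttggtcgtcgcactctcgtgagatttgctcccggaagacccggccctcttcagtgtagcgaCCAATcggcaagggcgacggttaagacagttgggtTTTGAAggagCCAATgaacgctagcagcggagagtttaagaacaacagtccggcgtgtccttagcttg
Plk1: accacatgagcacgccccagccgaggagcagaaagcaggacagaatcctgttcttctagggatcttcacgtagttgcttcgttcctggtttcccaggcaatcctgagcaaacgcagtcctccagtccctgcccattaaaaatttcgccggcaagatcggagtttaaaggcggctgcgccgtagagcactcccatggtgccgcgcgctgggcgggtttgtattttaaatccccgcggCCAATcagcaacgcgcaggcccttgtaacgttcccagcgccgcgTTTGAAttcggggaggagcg

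Of 43 core histone genes 32 rose and none fell, with a median of 0.87. By class, all 10 H2B genes and all 9 H4 genes tested rose, as did 7 of 8 H3 genes, but 6 of 16 H2A genes. Medians were 1.14 for H2B, 0.95 for H4, 0.85 for H3 and 0.21 for H2A. H3c10 read 11.52, 11.41, 11.46 and 11.44 with DMSO and 13.08, 13.20, 13.17 and 13.29 with SAHA, a rise of 1.73 ± 0.06, and H2bc21 rose by 2.02 ± 0.10. Histone genes are near-identical copies of each other, so a probe may read several of them and these are not independent genes. Among linker histones H1f2 rose by 2.55 ± 0.08 and H1f10 by 2.02 ± 0.09. With the mean of all kept probes standing for a gene, 1 core histone gene was called lower. TATAAA was present in 64.9% of the 37 core histone windows against 7.01% of all genes, and CCAAT in 81.1% against 40.1%. Among the 26 that rose and the 11 that did not, TATAAA was in 69.2% and 54.5%, and CCAAT in 73.1% and 100%. The window of H3c10, the H3 gene that rose most, is on the plus strand at chr13:21717378-21717677, with CCAAT at -83 and -53 and TATAAA at -31 in capitals.
H3c10: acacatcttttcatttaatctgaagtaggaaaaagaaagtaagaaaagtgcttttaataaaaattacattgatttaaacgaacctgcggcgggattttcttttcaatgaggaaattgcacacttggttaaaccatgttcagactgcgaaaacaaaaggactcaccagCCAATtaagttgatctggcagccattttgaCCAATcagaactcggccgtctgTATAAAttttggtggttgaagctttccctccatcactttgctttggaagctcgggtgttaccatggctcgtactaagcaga

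Over larger sets some short motifs were unevenly spread. GGGCGG, the letters of the SP1 site, was present in 69.0% of the 5949 genes, in 79.0% of the 595 that were at least 2-fold higher and in 57.3% of the 562 that were at least 2-fold lower. TATAAA went the other way, with 7.01%, 6.05% and 11.7% of the same sets, as did TTTGAA with 11.7%, 8.91% and 15.7%. These shares are given without a test.

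Among regulators of chromatin the acetylation list leaned downward. In this list and the next 3 the share called was 79.6% to 88.0%, near the 77.4% of all genes. Of 25 acetyltransferase and bromodomain genes 16 fell and 6 rose, with a median of -0.50. Ep300, one of the main histone acetyltransferases, read 9.93, 9.38, 9.62 and 9.52 with DMSO and 8.20, 8.05, 8.06 and 8.37 with SAHA and fell by 1.44 ± 0.11. Its relative Crebbp fell by 1.19 ± 0.15 and Brd9, a subunit of a chromatin remodeller, by 1.30 ± 0.05, while Brd7 was at 0.03 ± 0.05 and Kat8 at 0.07 ± 0.07. Among deacetylase and corepressor genes 17 of 32 rose and 11 fell. Hdac11 rose by 1.38 ± 0.10, Hdac7 fell by 2.12 ± 0.07, Mbd3 of the NuRD complex fell by 1.91 ± 0.09 and Hdac2, a direct target of SAHA, was at -0.05 ± 0.06. Of 54 histone methylation genes 25 fell and 18 rose. Setd1b, a subunit of an H3 methyltransferase complex, fell by 2.18 ± 0.09 and the arginine methyltransferase Carm1 by 1.57 ± 0.07, while Smyd3 rose by 2.00 ± 0.13. In the Polycomb and remodelling list 27 of 52 fell and 17 rose. Among the Polycomb genes of this list, Bmi1 fell by 2.04 ± 0.11, to 6.20 with SAHA, near the detection limits. Cbx2 and Rybp rose by 1.60 ± 0.13 and 1.62 ± 0.07. In the transcription list 31 of 58 rose and 17 fell. Hexim1, which holds the elongation kinase P-TEFb inactive, rose by 1.45 ± 0.06, and Med12 of Mediator fell by 1.51 ± 0.11.

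Stress genes did not share 1 direction. In the ATF4 list 18 of 30 fell and 8 rose. Ddit3 (CHOP) rose by 1.46 ± 0.13, while Trib3, a target of CHOP, fell by 1.88 ± 0.07 and Atf5 by 1.88 ± 0.07. In the unfolded protein list 16 of 30 rose and 5 fell. The chaperone Hspa5 (BiP) rose by 1.27 ± 0.12 and the sensor Ern1 by 1.60 ± 0.07, but Xbp1, the factor whose messenger RNA that sensor splices, fell by 1.51 ± 0.06 and Herpud1 fell by 2.07 ± 0.06. Among cytosolic chaperones 20 of 43 rose and 12 fell. Fkbp5, a co-chaperone of steroid receptors, rose by 1.55 ± 0.08 and the small heat shock protein Hspb8 fell by 2.07 ± 0.07. The p53 targets were even, 9 higher and 9 lower of 23, with the repair genes Ddb2 and Xpc up by 1.57 ± 0.08 and 1.48 ± 0.07 and Phlda3 down at -1.73 ± 0.06. In the apoptosis list 13 of 25 rose and 8 fell: Bcl2l11 (BIM), a trigger of cell death, rose by 1.94 ± 0.07, and Casp8 fell by 1.32 ± 0.06. In the clock list 6 of 14 rose and 6 fell. Cry2 rose by 1.49 ± 0.09 and Arntl by 1.23 ± 0.09, and Bhlhe40 fell by 1.68 ± 0.08. Interferon-stimulated genes were also divided, 8 up and 11 down of 22, with H2-K1 of antigen display at 1.06 ± 0.10 and Gbp2 at -1.57 ± 0.07.

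The share of called genes varied between large complexes. Of 53 cytosolic ribosome genes 2 rose and 3 fell, so 9.43% were called against 77.4% of all genes. Of these genes 24 read near the top of the scale in both groups, and the part of that in the low share was not tested. Rps6 fell by 0.45 ± 0.11, and Rpl26 was at 0.00 ± 0.06 with a 95% interval of -0.14 to 0.14. Of 69 genes of oxidative phosphorylation 55.1% were called, 22 up and 16 down, with Uqcrq at 0.70 ± 0.06, Ndufs8 at -0.96 ± 0.06 and Atp5b, near the top of the scale, at 0.00 ± 0.05. The mitochondrial ribosome, in contrast with the cytosolic one, was called in 80.0% of 70 genes, 23 up and 33 down. Mrpl49 rose by 1.73 ± 0.07 and Mrpl48 fell by 1.62 ± 0.07, though both belong to the large subunit. In the proteasome 17 of 41 genes rose and 10 fell, and the immunoproteasome subunits parted, Psmb9 at 0.83 ± 0.07 and Psmb10 at -1.94 ± 0.08. Of 70 splicing genes 35 fell and 21 rose, with U2af2, which finds the end of the intron, at -1.51 ± 0.09 and Srpk2, a kinase of splicing factors, at 1.22 ± 0.08.

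Markers of the labelled cell type were present. Genes of osteoblast matrix and mineral fell in 20 of 32 cases and rose in 1, with a median of -0.24 and 8 fitted at least 2-fold lower. Panx3, a channel gene of maturing osteoblasts, fell by 3.77 ± 0.07 and the matrix proteoglycan Omd by 1.78 ± 0.13, while Smpd3, a sphingomyelinase needed for mineralization, rose by 1.42 ± 0.08. Of 28 transcription factors of the osteoblast list 19 fell, 9 of them fitted at least 2-fold lower, and 6 rose. Their median was -0.58, or -0.39 with undetected genes at the detection limit. Alx4, a homeobox gene of the skull, fell by 2.89 ± 0.09, and Sox11 rose by 1.26 ± 0.06. Of 11 defining osteoblast markers 8 had a tested probe, none rose and 2 fell, Sp7, the osteoblast transcription factor, by 4.23 ± 0.07 and Alpl, the phosphatase of mineralization, by 1.15 ± 0.10. Col1a1, Col1a2, Sparc, Ibsp, Bglap and Phex were not called, with 0.08 ± 0.14 for Ibsp, -0.17 ± 0.10 for Bglap and -0.03 ± 0.07 for Sparc. Col1a1 and Sparc read near the top of the scale. Phex averaged 6.08 with DMSO and 6.03 with SAHA, at the detection limits of the arrays, so its values do not show a steady marker. Runx2, Spp1 and Dmp1 were not analysed here. Of other cell types, none of the defining markers Adipoq, Fabp4, Pparg and Plin1 (adipocyte), Pecam1, Cdh5 and Kdr (endothelium) or Cdh1, Epcam, Krt8 and Krt18 (epithelium) had a tested probe. The wider lists for these types held few tested genes. The adipocyte list held only Dgat2, described above, 2 of 4 endothelial genes rose and 2 fell, and 2 of 4 epithelial genes rose and 1 fell. In the muscle list 3 of 10 rose and 3 fell, from -2.44 to 1.46. The myosin light chain Myl4 fell by 2.44 ± 0.08 and Des by 0.32 ± 0.11, the latter a call lost under some alternative settings. The troponin Tnnc1 rose by 0.43 ± 0.07, a call lost with no normalization between arrays. Myog was not called, but its means of 5.92 with DMSO and 5.77 with SAHA lay below the detection limits. In the blood list 1 of 5 rose and 4 fell. Coro1a averaged 8.23 with SAHA and 5.99 with DMSO, where it was detected on 2 of the 4 arrays. That DMSO mean lay at the detection limits, so the size of the rise is not given. Among the falls were Lyz2, by 0.41 ± 0.10, and Csf1r, which was not above background at 6 h. For Csf1r the bound against the detection limit was 1-fold, so no fall is shown beyond that limit. In the cartilage list 5 of 7 fell and none rose, with Col2a1 at -0.39 ± 0.09 and Sox9, not called, at -0.15 ± 0.07. The part of other cell types in the results was not tested. Of 20 homeobox and patterning genes 15 fell, and all 6 Hox genes among them did, with Hoxa5 at -1.85 ± 0.09. Of 12 reference genes commonly used for scaling 3 rose, 2 fell and 7 were not called. The share called was 41.7%, against 77.4% of all genes. Ppia, near the top of the scale, was at -0.05 ± 0.06 and Rpl13a at -0.05 ± 0.08. Tfrc rose by 1.14 ± 0.09 and Ywhaz fell by 1.02 ± 0.07, the only rise and the only fall of at least 2-fold in this list.

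The 6 h arrays also differed from the 2 h arrays in most genes. The 6 h and 2 h groups differed in 5743 genes, 62.7% of those tested, with 3145 higher at 6 h (34.4%) and 2598 lower (28.4%). Both comparisons share the 6 h arrays. Of the genes called against DMSO, 2460 were above and 2232 below both DMSO and 2 h and 1976 were not called against 2 h. A smaller number lay between the other groups, 138 above DMSO but below 2 h and 277 below DMSO but above 2 h. Some genes moved between 2 h and 6 h. Map2 read 7.94, 8.08, 8.13 and 8.25 at 2 h, within or just above its DMSO range, and Dgat2 read 6.40, 6.74, 6.50 and 6.52 at 2 h against 6.82, 6.53, 6.33 and 6.54 with DMSO and 8.54, 8.24, 8.09 and 8.05 at 6 h. From 2 h to 6 h Map2 rose by 1.95 ± 0.08 and Dgat2 by 1.69 ± 0.12, and Scx changed by -3.11 ± 0.08, Flnc by -1.50 ± 0.07 and Ccn4 by -1.69 ± 0.05.

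Other genes were not called between 2 h and 6 h. Pkp2 differed between the times by -0.03 ± 0.07, Herpud1 by -0.05 ± 0.06, Kmt5b by -0.17 ± 0.08 and Ulk1 by -0.05 ± 0.07. Herpud1 read 13.38, 13.27, 13.24 and 13.25 with DMSO, 11.29, 11.20, 11.27 and 11.29 at 2 h and 11.31, 11.25, 11.10 and 11.19 at 6 h. A smaller set had moved part of the way back. Trib3 read 10.75, 10.78, 10.71 and 10.74 with DMSO, 7.04, 7.18, 7.31 and 7.25 at 2 h and 9.01, 8.91, 8.76 and 8.79 at 6 h, so the 3 groups do not overlap, and it was higher at 6 h than at 2 h by 1.67 ± 0.07. The receptor Fzd1 was higher than at 2 h by 0.65 ± 0.11 while still below DMSO. Among genes above DMSO, Dusp5, a phosphatase that shuts off ERK, differed from 2 h by -0.68 ± 0.10, Bcl2l11 by -0.46 ± 0.07 and Cry2 by -0.32 ± 0.09, each given as 6 h minus 2 h.

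**Figure D5:**
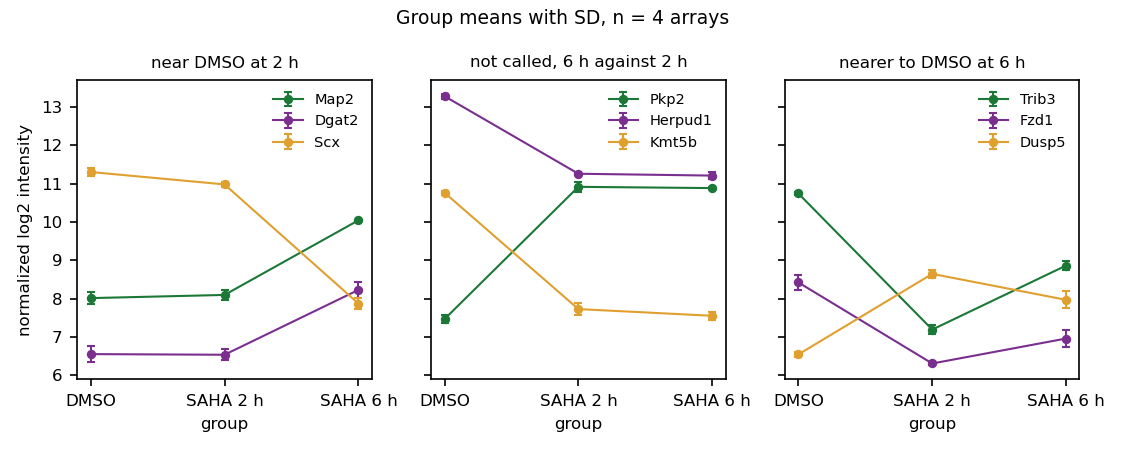
Group mean normalized log2 intensity with standard deviation, 4 arrays each (vertical axis), at DMSO, SAHA 2 h and SAHA 6 h (horizontal axis) for 9 genes in 3 panels: genes that differ between 2 h and 6 h and lie near DMSO at 2 h (Map2, Dgat2, Scx), genes not called between 2 h and 6 h (Pkp2, Herpud1, Kmt5b), and genes nearer to DMSO at 6 h than at 2 h (Trib3, Fzd1, Dusp5). Trib3 stands between its 2 h and DMSO levels at 6 h, with no overlap of the 3 groups.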

How the data were processed

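RNA of 12 samples was labelled as cRNA and hybridised to an Illumina mouse BeadChip. Per the file headers, the deposited table gives each probe's intensity on each array, linear and not normalized, with its detection p-value. The authors also deposited intensity values that they normalized, by a method not given in the sources used here.

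Intensities were background-corrected with normexp from the detection p-values, given an offset of 16, then quantile-normalized and log2-transformed (neqc, limma 3.58.1, R 4.3.3). The offset shrinks differences of dim genes. Probes and genes were selected as the text above states, and the 2295 kept probes without 1 listed symbol are unnamed here. Linear models with moderated, two-sided tests were fitted to the 3 groups together, with Benjamini-Hochberg adjustment over 9153 genes, and were tested on simulated data. Precision is limited by the 4 arrays a group, with a median standard error of 0.079 per difference. Genes detected on none of the 4 arrays of a group are given only as a bound against the lowest signal among probes detected on the array.

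The gene lists, the named genes and the comparisons were chosen with earlier results of these data known. Named genes are among the 25 largest rises and falls with groups apart, up to 6 called members of a list with the largest and 2 with the smallest differences, 23 genes chosen by name, and the 10 largest differences between 6 h and 2 h. Numb, Myog, Syn1 and Col1a2 fall outside this rule and were named as relatives or markers. Alternatives covered background, normalization, probe choice and filter, threshold, variance model, array weights, arrays in the fit, each array left out and the authors' values. Promoter windows were taken from RefSeq by gene symbol, and a window was listed for 7477 of the 9153 genes.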

Additional observations from a re-analysis of the deposited data

Results flagged for a closer look

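The 6 h and 2 h arrays differed in 5743 genes by a test of that difference (limma, adjusted p under 0.05). Among the genes named above, 9 were called in one direction against DMSO and in the other against 2 h. For those below DMSO, the difference of 6 h minus 2 h was 1.67 ± 0.07 for Trib3, 0.65 ± 0.11 for Fzd1 and 0.33 ± 0.11 for Kdm8, whose values at both times were not above background. For those above DMSO, it was -0.68 ± 0.10 for Dusp5, -0.46 ± 0.07 for Bcl2l11, -0.32 ± 0.09 for Cry2, -0.28 ± 0.08 for Id1, -0.23 ± 0.08 for Rbm38 and -0.45 ± 0.06 for Sox11.

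Of 526 groups of 4 values checked, 20 held an array far from the others, where chance gives about 1 in 20. Of the 6 h arrays, array 10 was the one that stood apart for Jag1 at 8.96, Hspa5 at 10.04, Lama5 at 7.17, Mapt at 7.99 and Col27a1 at 5.48, and array 9 for Hexim1 at 10.58, Rpa1 at 14.70, Srpk2 at 9.98 and Tnfrsf11b at 8.68. Array 12 stood apart for Brd7 at 10.57. Of the DMSO arrays, array 1 stood apart for Insl6 at 8.63, array 2 for Nkd2 at 9.36 and Pdgfc at 10.56, array 3 for Mbd3 at 10.09 and Glb1 at 11.14, and array 4 for Ankrd1 at 9.19, Syn1 at 9.84, Tfrc at 9.01, Cx3cl1 at 10.84 and Omd at 10.90. The widest of these groups was that of Jag1, with a range of 0.73; without array 10 the rise of Jag1 was 1.07, against 1.24 with it.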

How the results depend on the processing

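The number of genes changed ranged from 5383, with no normalization between arrays, to 7313, and the share of higher genes among them from 47.2% to 51.1%. Without background correction 573 genes were at least 2-fold higher and 635 at least 2-fold lower. The authors' normalized values, which differ by an unstated method, gave 604 at least 2-fold higher. With no normalization between arrays 3517 genes differed between 6 h and 2 h. Leaving out each array in turn gave 6882 to 6974 genes changed, 3458 to 3502 higher, 3424 to 3472 lower, 908 to 930 at least 2-fold higher, 968 to 992 at least 2-fold lower and 5404 to 5755 between 6 h and 2 h. Of the 148 counts of list members called higher or lower, 37 were smaller by over 1.5 times with no normalization between arrays and 15 with probes detected on all 12 arrays, and none was larger by that much in either setting. Median scaling moved 4 and each of the other settings at most 4, and leaving out 1 array moved none. Among the lists described, no normalization left, of members called higher, 1 receptor tyrosine kinase, 6 Wnt, 9 PI3K and FOXO, 1 collagen, 7 actin, 1 mitosis, 9 CDK inhibitor and quiescence, 9 deacetylase and corepressor, 3 acetyltransferase and bromodomain, 11 histone methylation, 7 Polycomb and remodelling, 7 proteasome, 7 ER to Golgi, 9 glycolysis, 11 oxidative phosphorylation, 15 mitochondrial ribosome, 10 splicing, 2 osteoblast factor and 0 cytosolic ribosome genes. It left, of members called lower, 3 PI3K and FOXO, 8 collagen processing, 10 integrin and focal adhesion, 3 proteasome, 2 autophagy, 13 osteoblast matrix and 10 oxidative phosphorylation genes. With probes detected on all 12 arrays, 6 hormone receptor, 9 homeobox, 3 chemokine and cytokine, 2 cartilage, 1 blood, 1 endothelial and 0 epithelial genes were lower, and 6 neuronal, 3 chemokine and cytokine, 1 muscle, 1 endothelial, 1 epithelial and 0 blood genes higher. Median scaling left 14 oxidative phosphorylation and 1 cytosolic ribosome genes higher and 5 proteasome genes lower. Cytosolic ribosome counts, small in all settings, ranged from 0 to 5 higher and reached 6 lower with the mean of all probes. Reference genes called higher ranged from 1, with no normalization between arrays, to 6 with the mean of all probes. With the replicate block 5 microtubule genes were lower, and at an adjusted p under 0.01 3 chemokine and cytokine genes were higher. The cause of these shifts was not tested.

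Of the 263 genes named, 1 reversed, Ackr4, with a log2 change of 1.56 when probes had to be detected on all 12 arrays, because another probe then stood for it. A further 3, Ptch1, Des and Tnnc1, lost their call in some setting and 8 gained one. All 7083 called genes kept their sign in the authors' normalized values and 6990 were called there with that sign. Replicate numbers exist only for those values. There DMSO and 6 h samples with the same number deviated together weakly or not at all (correlations 0.108, 0.130, -0.036 and 0.086). The largest correlations with another number were 0.0878, 0.133, 0.191 and 0.293 in the same order. Whether the numbers mark pairs is not settled by these values. With the replicate block 7301 genes were changed, 12429 probes were called and 604 genes were at least 2-fold higher, against 7106, 12021 and 604 without it. Bounds rest on a detection limit at p under 0.01 and are larger with a limit at p under 0.05, 29.2-fold in place of 21.3-fold for Gch1.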
